A study of Mus musculus with 12 samples.

Results

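The peroxiredoxins and the thioredoxin system, 10 genes of the 14264 measured, were described in mouse bone marrow-derived macrophages with and without a hairpin against MOF, the lysine acetyltransferase that Kat8 encodes. The members were chosen by gene name: the 6 peroxiredoxins Prdx1 to Prdx6, thioredoxin (Txn1), its reductase (Txnrd1), its inhibitor (Txnip) and sulfiredoxin (Srxn1). All 10 had a row in both tables. The 4 groups were shMOF with LPS at 100 ng/ml for 3 h, shCTRL with the same LPS, unstimulated shMOF and unstimulated shCTRL, with 3 libraries each, all from cells grown out of mouse marrow ex vivo. Each group carried a hairpin, and the labels give neither its sequence nor the strain or age of the mice, nor a separate culture or animal for each library. P-values therefore measure only the spread between these libraries, and loss of MOF cannot be told apart from anything else the MOF hairpin does. The tables hold 1 fold change per gene and comparison, shMOF over shCTRL within an LPS state, and no value per library, so the SE of each fold change stands for the spread.

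Peroxiredoxins are abundant thiol peroxidases that reduce hydrogen peroxide with a reactive cysteine. In most 2-Cys members the oxidised cysteine forms a disulfide that a thioredoxin reduces. Thioredoxin is in turn recharged by thioredoxin reductase, a selenoprotein that uses NADPH. Prdx6 is the 1-Cys member and is recharged by glutathione instead, Txnip binds thioredoxin and blocks it, and sulfiredoxin repairs peroxiredoxins whose cysteine has been oxidised too far. In macrophages these enzymes face the peroxide made by the NADPH oxidase and by mitochondria, and several of their genes are classical targets of the transcription factor NRF2.

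The hairpin lowered its target, and the cells carried macrophage transcripts. In the authors' deposited table Kat8 had a log2 fold change of -2.31 (SE 0.13) at LPS 3 h and -2.25 (SE 0.10) unstimulated. All 10 macrophage markers were measured, with mean normalized counts from 1233 for Mertk to 259735 for Lyz2, and 7 rose and 1 fell at LPS 3 h while 9 rose unstimulated. Of all genes tested, 28.1% rose and 20.0% fell at LPS 3 h, and 21.3% rose and 17.8% fell unstimulated. None of 9 erythroid and none of 7 lymphoid markers had a row in the tables, and of 8 neutrophil markers S100a8 and Camp had means of 21.0 and 6.69. All 5 stromal markers had a row, with means from 22.7 to 667; 4 rose at LPS 3 h and 3 rose unstimulated. Of 4 progenitor markers 3 had a row, with means of 14.9 for Kit, 40.5 for Cd34 and 998 for Ly6a. Of these, 2 fell at LPS 3 h and 3 unstimulated. The part of these other cell types in the results on the members was not tested. In bulk RNA, fewer cells of a type and less RNA per cell cannot be told apart.

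Prdx1 had the highest level of the system per transcript length, and Prdx6 the lowest. The authors' deposited table gives 1 mean normalized count per gene, identical for both LPS states, so it shows the order of the genes and not a level in any group. Divided by the summed length of the annotated exons, Prdx1, a cytosolic 2-Cys peroxiredoxin, stood at 10782 normalized counts per kilobase, and Txn1 followed at 8353. Prdx5, the atypical 2-Cys member found in mitochondria, peroxisomes and cytosol, had 5004 normalized counts per kilobase. Txnip at 2222, Srxn1 at 2204, Txnrd1 at 1753 and Prdx2, the other cytosolic 2-Cys member, at 1731 normalized counts per kilobase formed a middle group. Prdx4, the peroxiredoxin of the endoplasmic reticulum, had 996 and Prdx3, of the mitochondrial matrix, 830.3 normalized counts per kilobase. Prdx6 had 393 normalized counts per kilobase, at percentile 77.5 of all genes, while Prdx1 stood at percentile 99.2. With the longest annotated transcript as the length, the first 3 and the last 3 kept their places, and Txnrd1 and Prdx2 moved ahead of Txnip and Srxn1. No spread over libraries comes with these means, so whether neighbours in the order differ was not tested.

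**Figure D1:**
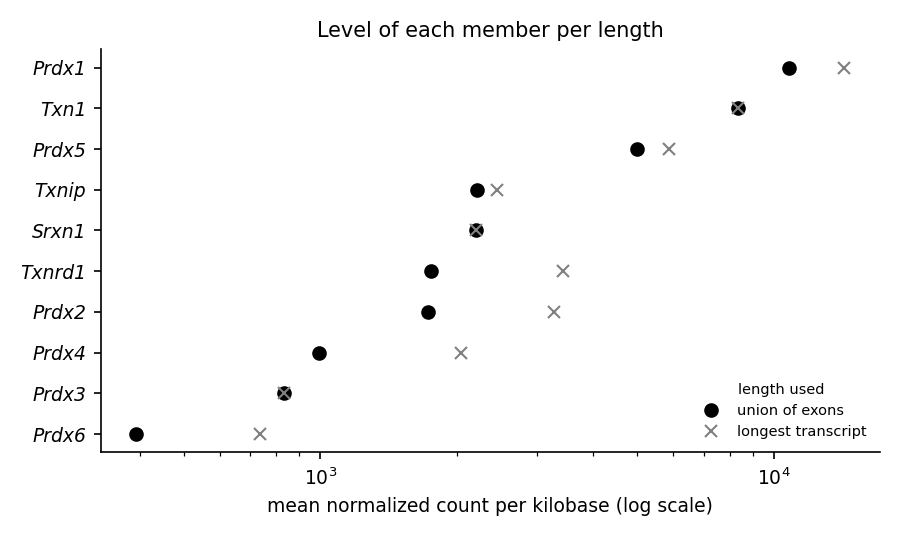
Mean normalized count per kilobase of each member on a log axis, with the summed exons (filled circles) or the longest annotated transcript (crosses) as the length, and the genes ordered by the summed exons. Prdx1 at 10782 and Txn1 at 8353 normalized counts per kilobase lead, and Prdx6 at 393 is last.

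Of the 10 members Prdx6 fell most with the MOF hairpin, to 0.514-fold of the shCTRL level at LPS 3 h and 0.466-fold unstimulated. At LPS 3 h 6 of the 10 members passed an adjusted p of 0.05 in the authors' Wald test, 2 higher and 4 lower, where 48.0% of all genes tested passed, 28.1% higher and 20.0% lower. In unstimulated cells 9 of 10 passed, 2 higher and 7 lower, where 39.1% of all genes passed, 21.3% higher and 17.8% lower. The median log2 fold change of the members was -0.08 at LPS 3 h, beside 0.03 over all genes tested, and -0.17 unstimulated, beside 0.03. Of the 10 members 3 passed in both states in the same direction and 2 in opposite directions, where 22.2% and 3.94% of all genes did.

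**Figure D2:**
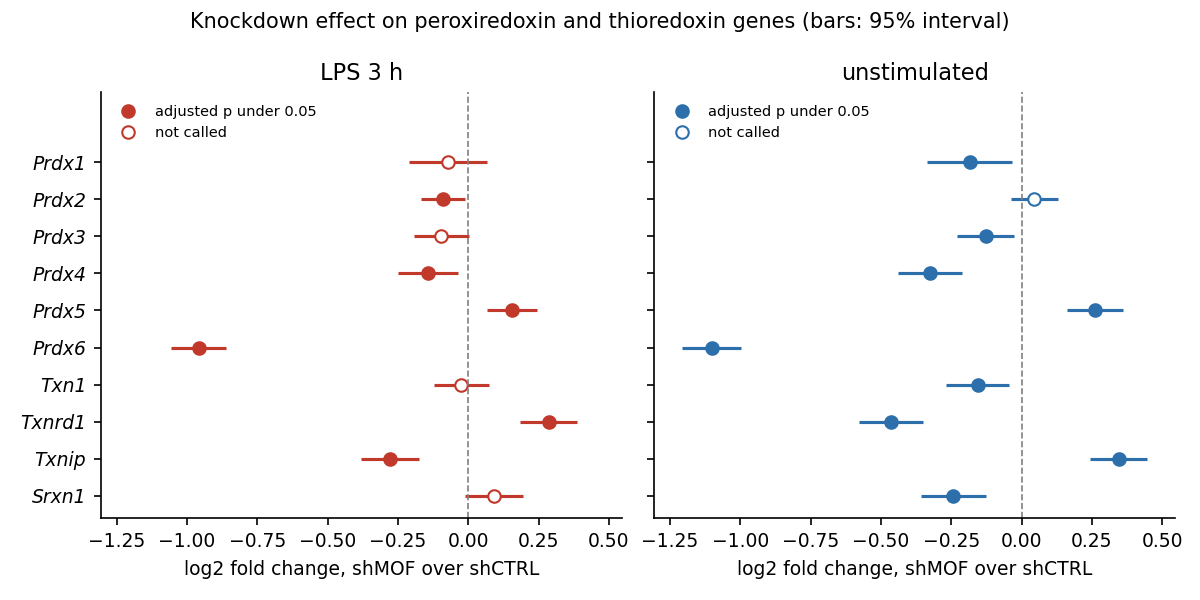
Log2 fold change of each member, shMOF over shCTRL, at LPS 3 h (left) and unstimulated (right), with 95% intervals; filled circles passed an adjusted p of 0.05. Prdx6 stands far to the left in both states, at -0.96 at LPS 3 h and -1.10 unstimulated, while Txnrd1 and Txnip change sides between the states.

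Prdx6, which also has phospholipase activity toward lung surfactant and membrane lipids, is a minus-strand gene of chromosome 1 (GRCm38 positions 161240112 to 161251219). The 95% interval of its fold of the shCTRL level ran from 0.481 to 0.550 at LPS 3 h and from 0.433 to 0.501 unstimulated. The log2 fold changes in the authors' deposited table were -0.96 (SE 0.05, adjusted p = 3.19e-81) at LPS 3 h and -1.10 (SE 0.05, adjusted p = 5.17e-92) unstimulated. By p-value Prdx6 ranked 39 of 14264 genes at LPS 3 h and 34 unstimulated, whereas by size of fall it ranked 592 at LPS 3 h and 388 unstimulated. It was the only member that passed in either state under an empirical null, which takes the spread of the statistic over all genes as the noise.

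Prdx1, the protein named in the series title, is a plus-strand gene of chromosome 4 (positions 116685544 to 116700822). Its fold of the shCTRL level was 0.952 at LPS 3 h (95% interval 0.865 to 1.05) and 0.880 unstimulated (95% interval 0.791 to 0.978). In the authors' deposited table the adjusted p was 0.425 at LPS 3 h and 0.0450 unstimulated, so that only the unstimulated fall passed. The SE of Prdx1, 0.07 at LPS 3 h and 0.08 unstimulated in the authors' deposited table, was the widest of the 10 members although its count was the highest. Processed pseudogenes Gm21399 and Gm7204 match its transcript at 98.3% and 97.5% identity over 597 bases, and their mean normalized counts of 80.9 and 42.1 in the authors' deposited table compare with 32809 for Prdx1.

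Among the other 2-Cys members, Prdx4 fell and Prdx5 rose with the MOF hairpin in both states. Prdx4, which oxidises disulfide isomerases during protein folding, fell in both states, with -0.14 (SE 0.05, adjusted p = 0.0206) at LPS 3 h and -0.33 (SE 0.06, adjusted p = 1.82e-07) unstimulated in the authors' deposited table. Prdx3 had -0.10 (SE 0.05, adjusted p = 0.0983) at LPS 3 h and fell with -0.13 (SE 0.05, adjusted p = 0.0342) unstimulated in the authors' deposited table. These 2 effects were of nearly the same size, and at LPS 3 h Prdx3 passed once the fold changes were centred on their median. Prdx2 fell slightly at LPS 3 h, with -0.09 (SE 0.04, adjusted p = 0.0466), and had 0.05 (SE 0.04, adjusted p = 0.432) unstimulated in the authors' deposited table. Prdx5 was the only peroxiredoxin that rose, with 0.16 (SE 0.05, adjusted p = 0.00169) at LPS 3 h and 0.26 (SE 0.05, adjusted p = 2.28e-06) unstimulated in the authors' deposited table.

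Both Prdx5 and Prdx2 overlap genes on the opposite strand, and the sources used here do not say whether reads were counted by strand. Trmt112, a methyltransferase cofactor gene, shares 671 exon bases with Prdx5, and had 0.36 (SE 0.08) at LPS 3 h and 0.29 (SE 0.09) unstimulated in the authors' deposited table. Its mean normalized count was 743, beside 10705 for Prdx5, in the authors' deposited table. Prdx2 shares 173 exon bases with the AP-1 gene Junb and 196 with Rnaseh2a, and Junb, with a mean of 18559 beside 5281 for Prdx2, had 0.42 (SE 0.05) at LPS 3 h and 0.12 (SE 0.06) unstimulated in the authors' deposited table. The pseudogene Tdpx-ps1, with a mean of 14.0 in the authors' deposited table, matches Prdx2 at 96.3% identity. The share of reads from these genes in the values of Prdx5 and Prdx2 was not tested.

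In the reducing arm, reductase and inhibitor moved in opposite directions within each LPS state, and both changed direction between the states. Txnrd1 (plus strand of chromosome 10, positions 82833951 to 82897712) stood at 1.22-fold of the shCTRL level at LPS 3 h (95% interval 1.14 to 1.31) and at 0.724-fold unstimulated (95% interval 0.669 to 0.784). Txnip (plus strand of chromosome 3, positions 96557957 to 96561883) stood at 0.825-fold at LPS 3 h (95% interval 0.768 to 0.887) and at 1.27-fold unstimulated (95% interval 1.18 to 1.36). With the hairpin, then, LPS-treated cells had more reductase and less inhibitor transcript than shCTRL cells, and unstimulated cells less reductase and more inhibitor. All 4 of these values passed the authors' Wald test. In the authors' deposited table the adjusted p of Txnrd1 was 1.73e-07 at LPS 3 h and 3.18e-14 unstimulated, and that of Txnip was 8.42e-07 at LPS 3 h and 2.74e-10 unstimulated. Against a null of an absolute log2 change of at most 0.25, only the unstimulated fall of Txnrd1 passed among the 4. The antisense gene Gm15441 shares 606 exon bases with Txnip and had a mean normalized count of 9.24 beside 6939 for Txnip in the authors' deposited table.

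Thioredoxin itself and sulfiredoxin were called in unstimulated cells. Txn1 (minus strand of chromosome 4, positions 57943373 to 57956411) had -0.02 (SE 0.05, adjusted p = 0.728) at LPS 3 h and fell with -0.16 (SE 0.06, adjusted p = 0.0165) unstimulated in the authors' deposited table. The unstimulated fall leaves 0.897 of the shCTRL level. Srxn1 (plus strand of chromosome 2, positions 152105516 to 152111376) had 0.09 (SE 0.05, adjusted p = 0.149) at LPS 3 h and fell with -0.24 (SE 0.06, adjusted p = 1.75e-04) unstimulated in the authors' deposited table. The 95% interval of Srxn1 ran from 0.991-fold to 1.14-fold at LPS 3 h and from 0.781-fold to 0.915-fold unstimulated, so the intervals do not overlap. Under a threshold of 0.01, the unstimulated calls of Txn1, Prdx1 and Prdx3 and the LPS 3 h calls of Prdx4 and Prdx2 were lost.

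The knockdown effect on Txnrd1, Srxn1 and Txnip differed between LPS 3 h and unstimulated cells, and that on the 6 peroxiredoxins and Txn1 was not shown to differ. The difference of the 2 log2 fold changes, LPS 3 h minus unstimulated, was tested against the root of their summed squared SE, and the p was adjusted by Benjamini-Hochberg over the 12994 genes whose mean normalized count reached 10. It passed for 3 of 10 members, 2 higher and 1 lower, where 30.6% of all genes passed, 18.2% higher and 12.4% lower. Txnrd1 had a difference of 0.75 (SE 0.08, adjusted p = 6.53e-20), which ranked 101 of these genes by p. Txnip had -0.62 (SE 0.07, adjusted p = 2.53e-15), at rank 175. Srxn1 had 0.33 (SE 0.08, adjusted p = 1.95e-04), at rank 1531.

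Among the peroxiredoxins the differences were small, and their intervals show how large a change these data leave possible. Prdx4 had 0.18 (95% interval 0.03 to 0.34, adjusted p = 0.0645) and Prdx2 -0.14 (95% interval -0.25 to -0.02, adjusted p = 0.0605). Prdx6 had 0.14 (95% interval 0.00054 to 0.29, adjusted p = 0.125). For Prdx1 the difference was 0.11 (95% interval -0.09 to 0.32, adjusted p = 0.443) and for Txn1 0.13 (95% interval -0.02 to 0.28, adjusted p = 0.182). Prdx5 had -0.10 (95% interval -0.24 to 0.03, adjusted p = 0.251) and Prdx3 0.03 (95% interval -0.11 to 0.17, adjusted p = 0.789). None of these 7 passed, and none of their intervals reaches the 0.75 of Txnrd1. Prdx2 passed once the fold changes were centred on their median (adjusted p = 0.0447).

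**Figure D3:**
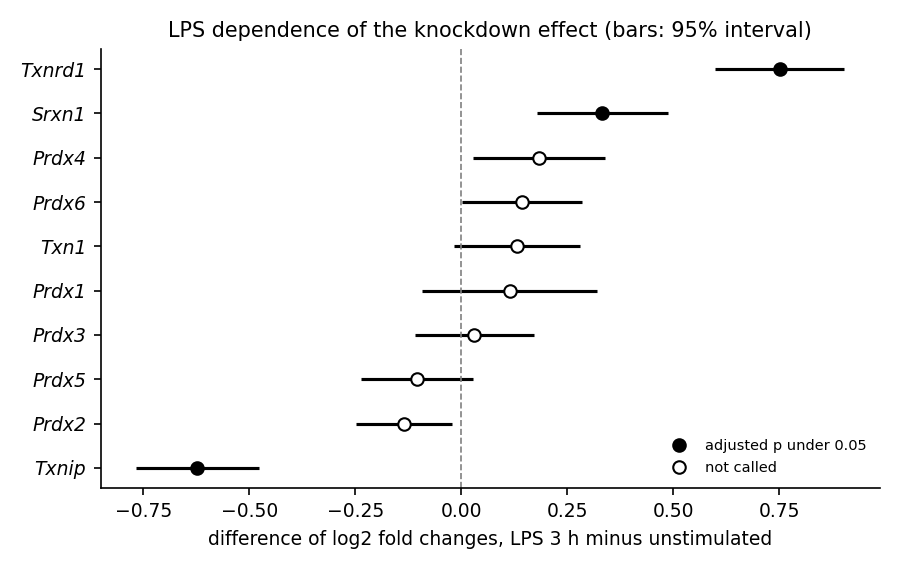
Difference of the knockdown effect for each member, the log2 fold change at LPS 3 h minus that in unstimulated cells, with 95% intervals; filled circles passed an adjusted p of 0.05. Txnrd1 at 0.75 and Srxn1 at 0.33 lie at the top, Txnip at -0.62 at the bottom, and the other 7 near 0.

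**Figure D4:**
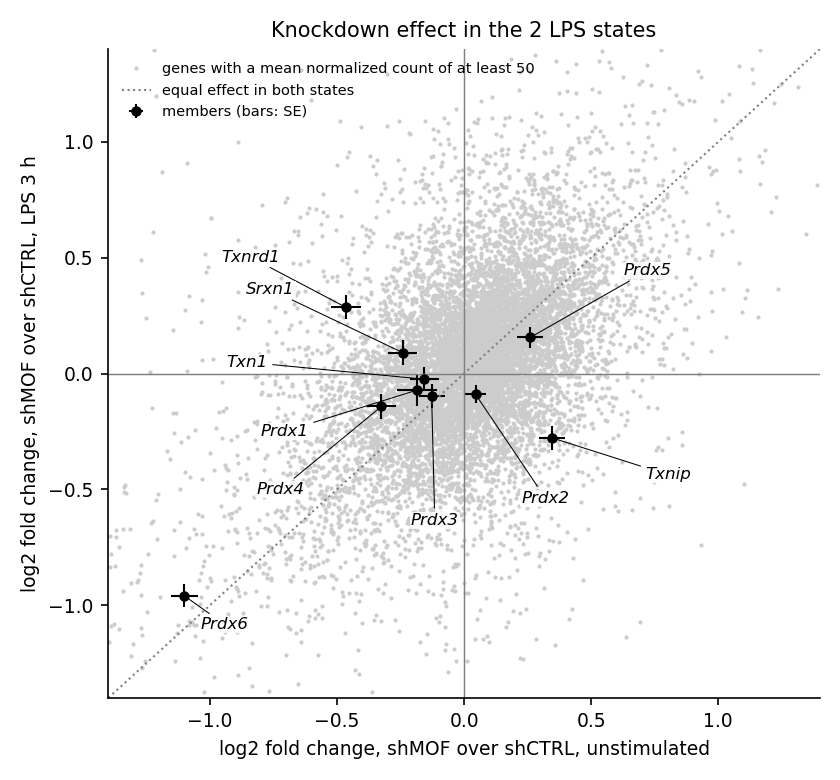
Knockdown effect in unstimulated cells (horizontal axis) and at LPS 3 h (vertical axis), both as log2 fold change of shMOF over shCTRL, for the members (black, bars are SE) and for all genes whose mean normalized count reached 50 (grey; 10542 of 10809 lie within the axes). Prdx6 lies near the line of equal effects, and Txnrd1 and Txnip lie in the quadrants where the sign changes.

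The promoters of the members whose effect differed between the states are shown with that of Prdx1. Txnrd1, Srxn1 and Prdx1 are known targets of NRF2, and Txnip of factors that bind carbohydrate response elements made of E-boxes. The windows hold 250 bases before and 50 after the RefSeq start, on the gene's strand, from the RefSeq table of GRCm38.p6. They were found, by symbol, for 9 of the 10 members, all but Prdx6, whose promoter was therefore not searched. Capitals mark matches, on either strand, to the core of the antioxidant response element (TGACNNNGC), the AP-1 site (TGANTCA), the E-box (CACGTG) and the CCAAT box (CCAAT). Txnrd1 has 3 windows, and the one with a match to the response element core is given.
Txnrd1, chr10:82858956-82859255, plus strand: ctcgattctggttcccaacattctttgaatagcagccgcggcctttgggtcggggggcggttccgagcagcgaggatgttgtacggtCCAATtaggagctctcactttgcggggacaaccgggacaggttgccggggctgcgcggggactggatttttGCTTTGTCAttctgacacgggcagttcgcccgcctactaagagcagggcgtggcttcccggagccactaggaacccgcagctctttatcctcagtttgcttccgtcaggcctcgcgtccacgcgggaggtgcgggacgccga
Srxn1, chr2:152105274-152105573, plus strand: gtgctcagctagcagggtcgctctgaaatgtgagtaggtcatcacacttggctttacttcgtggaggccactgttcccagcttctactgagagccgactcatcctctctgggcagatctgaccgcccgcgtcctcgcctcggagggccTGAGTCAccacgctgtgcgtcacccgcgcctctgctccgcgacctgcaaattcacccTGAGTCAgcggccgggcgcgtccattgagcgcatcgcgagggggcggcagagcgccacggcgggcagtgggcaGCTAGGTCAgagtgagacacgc
Prdx1, chr4:116685349-116685648, plus strand: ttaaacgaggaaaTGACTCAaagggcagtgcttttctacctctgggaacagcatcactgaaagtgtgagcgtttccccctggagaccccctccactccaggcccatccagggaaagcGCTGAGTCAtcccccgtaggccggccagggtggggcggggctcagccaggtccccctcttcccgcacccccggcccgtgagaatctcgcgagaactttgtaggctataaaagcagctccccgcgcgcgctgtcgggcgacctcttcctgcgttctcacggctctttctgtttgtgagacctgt
Txnip, chr3:96557707-96558006, plus strand: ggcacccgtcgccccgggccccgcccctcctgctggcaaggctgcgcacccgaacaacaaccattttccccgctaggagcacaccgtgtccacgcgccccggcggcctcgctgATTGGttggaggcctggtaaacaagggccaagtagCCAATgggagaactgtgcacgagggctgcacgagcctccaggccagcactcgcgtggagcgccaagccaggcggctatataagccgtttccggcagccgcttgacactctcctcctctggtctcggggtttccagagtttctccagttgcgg

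Txnrd1, Srxn1 and Prdx1 were the 3 of 9 members with a match to the response element core. That is 3 of their 11 windows, beside 12.4% of all 32851 windows. In Prdx1 the match, at bases -133 to -125 from the start, overlaps 1 of 2 AP-1 matches, and in Txnrd1 it lies at -92 to -84. Srxn1 has its core match after the start, at 29 to 37, and AP-1 matches at -102 to -96 and -45 to -39. With the bases that follow it, the match at -45 reads TGAGTCAGC, which differs from the core letters by a G in place of the C. Response elements that differ from TGACNNNGC were not searched and would be missed. AP-1 matches were found in 2 of the 11 windows, those of Prdx1 and Srxn1, and in 7.81% of all windows. Txnip holds neither of these, and has CCAAT matches at -137 to -133 and -102 to -98, a box that 37.4% of all windows hold. The E-box was found in 1 of the 11 windows, that of Prdx4, and in 7.15% of all windows. Only the exact letters CACGTG were searched. Carbohydrate response elements whose E-boxes differ from these letters would be missed, so their absence from the Txnip window is not shown. The matches are descriptions of these windows and show no binding.

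Genes around the system moved in both directions, with most called glutathione and glutaredoxin genes lower in unstimulated cells. Of 18 glutathione and glutaredoxin genes 3 rose and 6 fell at LPS 3 h, with a median log2 fold change of -0.06, and 1 rose and 10 fell unstimulated, with a median of -0.23. Over all genes tested 28.1% rose and 20.0% fell at LPS 3 h, and 21.3% rose and 17.8% fell unstimulated. No count of a gene list was tested against these shares. In the authors' deposited table Gclc, the catalytic subunit of the rate-limiting enzyme of glutathione synthesis, had -0.36 (SE 0.07) at LPS 3 h and -0.52 (SE 0.07) unstimulated. Its modifier subunit Gclm had -0.44 (SE 0.09) at LPS 3 h and -0.33 (SE 0.09) unstimulated in the authors' deposited table, all 4 past the threshold. Slc7a11, which imports cystine for glutathione synthesis, rose with 0.60 (SE 0.11) at LPS 3 h and fell with -0.39 (SE 0.15) unstimulated in the authors' deposited table. Chac1, which degrades glutathione, likewise rose with 0.998 (SE 0.20) at LPS 3 h and fell with -0.89 (SE 0.35) unstimulated in the authors' deposited table. Gsr, glutathione reductase, had 0.02 (SE 0.06) at LPS 3 h and fell with -0.23 (SE 0.06) unstimulated in the authors' deposited table. The 1 rise unstimulated was that of the glutathione peroxidase gene Gpx1, with 0.21 (SE 0.06) in the authors' deposited table. Gpx1 also rose at LPS 3 h, with 0.27 (SE 0.06) in the authors' deposited table. The difference between the states passed for 3 of the 18 listed genes, all higher, where 18.2% of all genes passed higher and 12.4% lower. These 3 were Slc7a11 (0.98, SE 0.18), Chac1 (1.89, SE 0.40) and Gsr (0.25, SE 0.08), in the direction of Txnrd1 and Srxn1.

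Of 6 genes for NRF2 and its regulators 4 rose and 1 fell at LPS 3 h, beside 28.1% and 20.0% of all genes, and 2 rose unstimulated, beside 21.3%. The NRF2 gene Nfe2l2 rose with 0.15 (SE 0.04) at LPS 3 h and had -0.03 (SE 0.05) unstimulated in the authors' deposited table. Keap1 was called in neither state, with an adjusted p of 0.947 at LPS 3 h and 0.838 unstimulated in the authors' deposited table. The adaptor Sqstm1, which draws KEAP1 away from NRF2, rose with 0.61 (SE 0.06) at LPS 3 h and had an adjusted p of 0.986 unstimulated in the authors' deposited table. The small MAF gene Mafk rose with 0.55 (SE 0.09) at LPS 3 h and had -0.09 (SE 0.10) unstimulated, and the repressor Bach1 rose with 0.48 (SE 0.08) at LPS 3 h and 0.29 (SE 0.09) unstimulated in the authors' deposited table. Mafg, another NRF2 partner, fell with -0.25 (SE 0.04) at LPS 3 h and rose with 0.12 (SE 0.04) unstimulated in the authors' deposited table, as Txnip did. Among 7 genes of selenoprotein synthesis, on which Txnrd1 protein depends, 3 rose and 2 fell at LPS 3 h and 1 rose and 1 fell unstimulated, beside 28.1% and 20.0% of all genes at LPS 3 h and 21.3% and 17.8% unstimulated. Sepsecs, which makes selenocysteinyl-tRNA, fell in both states, with -0.27 (SE 0.09) at LPS 3 h and -0.26 (SE 0.09) unstimulated in the authors' deposited table.

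Of 11 thioredoxin clients and related genes 2 rose and 6 fell at LPS 3 h, beside 28.1% and 20.0% of all genes, and 4 rose and 4 fell unstimulated, beside 21.3% and 17.8%. Ribonucleotide reductase, which thioredoxin recharges for DNA synthesis, led the falls: Rrm2 had -1.40 (SE 0.17) at LPS 3 h and -2.15 (SE 0.17) unstimulated, and Rrm1 -1.09 (SE 0.07) at LPS 3 h and -1.39 (SE 0.07) unstimulated, in the authors' deposited table. Map3k5, the kinase ASK1 that reduced thioredoxin holds inactive, rose with 0.84 (SE 0.08) at LPS 3 h and 0.26 (SE 0.10) unstimulated in the authors' deposited table. Msra, a methionine sulfoxide reductase that thioredoxin recharges, fell with -0.57 (SE 0.06) at LPS 3 h and -0.69 (SE 0.06) unstimulated in the authors' deposited table. Of 18 other thioredoxin-fold genes 7 rose and 5 fell at LPS 3 h and 5 rose and 2 fell unstimulated, where 28.1% and 20.0% of all genes did so at LPS 3 h and 21.3% and 17.8% unstimulated. Txndc16 rose with 0.81 (SE 0.07) at LPS 3 h and 0.55 (SE 0.07) unstimulated in the authors' deposited table. The membrane protein genes Tmx2 and Tmx4 fell with -0.88 (SE 0.06) and -0.69 (SE 0.06) at LPS 3 h, and with -0.57 (SE 0.05) and -0.73 (SE 0.06) unstimulated, in the authors' deposited table.

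Of 13 genes that supply NADPH 3 rose and 4 fell at LPS 3 h, beside 28.1% and 20.0% of all genes, and 6 rose and 3 fell unstimulated, beside 21.3% and 17.8%. The isocitrate dehydrogenase gene Idh1 rose with 0.68 (SE 0.06) at LPS 3 h and 0.51 (SE 0.06) unstimulated in the authors' deposited table, and the malic enzyme gene Me1 fell with -0.58 (SE 0.09) at LPS 3 h and -0.66 (SE 0.09) unstimulated. Of 6 measured relatives and regulators of Txnip 2 fell at LPS 3 h, beside 20.0% of all genes, and 2 rose and 1 fell unstimulated, beside 21.3% and 17.8%. Arrdc3, an alpha-arrestin like Txnip, fell with -0.74 (SE 0.15) at LPS 3 h and had -0.09 (SE 0.16) unstimulated in the authors' deposited table, and Arrdc4 had 0.06 (SE 0.07) at LPS 3 h and fell with -0.28 (SE 0.09) unstimulated. Arrdc2 had 0.09 (SE 0.11) at LPS 3 h and rose with 0.40 (SE 0.08) unstimulated, and Arrdc1 had -0.09 (SE 0.05) at LPS 3 h and rose with 0.14 (SE 0.05) unstimulated, in the authors' deposited table. Catalase (Cat), which also removes peroxide, fell with -0.31 (SE 0.05) at LPS 3 h and -0.35 (SE 0.06) unstimulated in the authors' deposited table. The superoxide dismutase gene Sod1 rose with 0.19 (SE 0.05) at LPS 3 h and had 0.04 (SE 0.05) unstimulated in the authors' deposited table. The mitochondrial dismutase gene Sod2 had an adjusted p of 0.987 at LPS 3 h and 0.682 unstimulated in the authors' deposited table, so that of 3 such genes 1 rose and 1 fell at LPS 3 h and 1 fell unstimulated, too few to set beside the shares of all genes.

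**Figure D5:**
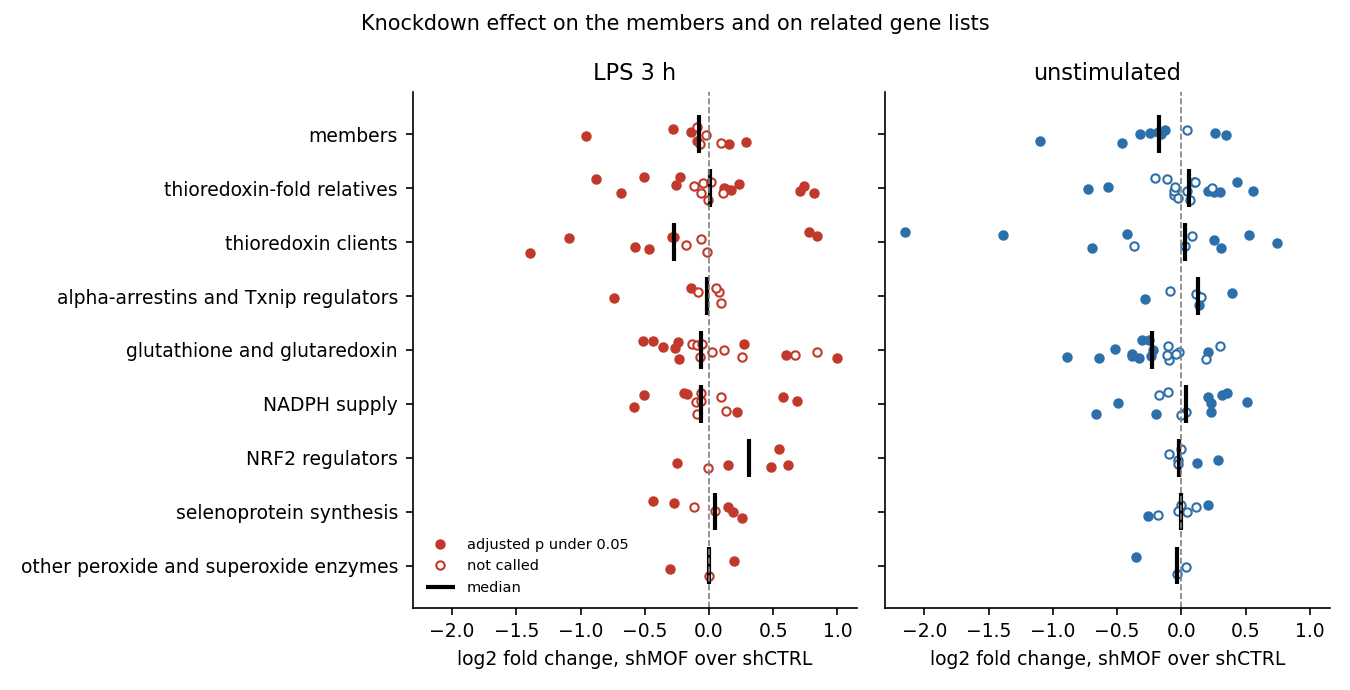
Log2 fold change, shMOF over shCTRL, of the members and of 8 related gene lists at LPS 3 h (left) and unstimulated (right); filled circles passed an adjusted p of 0.05 and black bars are list medians. Glutathione and glutaredoxin genes have a median of -0.06 at LPS 3 h and -0.23 unstimulated, and single genes spread to both sides in most lists.

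The genes whose pair of knockdown effects lay nearest to those of Prdx6, Txnrd1 and Txnip were found by Euclidean distance over the 2 log2 fold changes. The search covered 10185 other genes whose mean normalized count reached 50, with symbols of clones and predicted genes left out. For Prdx6 they were Chtf18, Mms22l and Rpa2, at distances of 0.0582, 0.0664 and 0.0718, and 6 genes in all lay within 0.1. For Txnrd1 they were Kif5c, Gpsm2 and Cdc42bpa, at 0.0298, 0.0450 and 0.0513, with 21 genes within 0.1. For Txnip they were Zbtb34, Tbc1d14 and Slc37a4, at 0.0239, 0.0261 and 0.0296, with 66 genes within 0.1. The likeness rests on 2 comparisons only, and the SE of each of these 9 genes, between 0.05 and 0.16, exceeds its distance.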

How the data were processed

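RNA was sequenced from 12 libraries with a stranded paired-end mRNA kit and reads of 100 bp, per the labels' protocols. DESeq2 (version not stated) and the build mm10 come from the submitters' processing notes, and for the aligner, the counter and the use of strand the answer is not given in the sources used here. Each of 2 tables holds 1 comparison of shMOF with shCTRL. Columns deposited by the authors are, per the file headers, the log2 fold change and its SE, the Wald statistic (a score), the p-value, its Benjamini-Hochberg adjustment, and the mean of the normalized counts (a signal over libraries not named). The statistic equalled fold change over SE to within 1.53e-13, and 277 genes of the LPS table have no adjusted p and stayed without one. Depth per library is unknown, so precision is known through the SE alone, with a median of 0.0852 at LPS 3 h and 0.0862 unstimulated over genes with a mean of at least 10.

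These values were taken as they stand, with calls at an adjusted p of 0.05. The difference between the states has a two-sided normal p and assumes independent errors, since the comparisons share no library. Intervals are normal 95% intervals from the SE. The code was tested on simulated data. Computation used Python 3.11.15, scipy 1.17.1 and pandas 2.3.3. GENCODE M21 (GRCm38, the same build as mm10) gave coordinates and exon lengths, with 14214 genes found by Ensembl ID. Similar transcripts were sought in that annotation at 95% identity over at least 200 bases. The members, gene lists and tests were chosen with earlier results of these data known. Named genes are the members, Kat8, the 3 genes with the smallest p of each list and comparison, as far as discussed, the 3 nearest genes for Prdx6, Txnrd1 and Txnip, and, by overlap or similarity to a member and after their values were seen, Trmt112, Junb, Rnaseh2a, Gm15441, Gm21399, Gm7204 and Tdpx-ps1. Gpx1 was also named after its values were seen, as the 1 listed glutathione gene that rose unstimulated. So were Nfe2l2 and Keap1, as the genes of NRF2 and KEAP1.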

Additional observations from a re-analysis of the deposited data

Results flagged for a closer look

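The knockdown effect on 3 of the 10 members differed between LPS 3 h and unstimulated cells by the test of the difference itself. Over all genes tested 30.6% passed the same test, so the count of members was near that share. Txnrd1 had a difference of 0.75 (SE 0.08), Txnip of -0.62 (SE 0.07) and Srxn1 of 0.33 (SE 0.08) on the log2 scale, LPS 3 h minus unstimulated. For Txnrd1 and Txnip the sign of the effect also changed, with each side past the threshold in its own state, and for Srxn1 only the unstimulated fall passed.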

How the results depend on the processing

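Against a null of an absolute log2 change of at most 0.25, 1 member passed at LPS 3 h (Prdx6) and 2 unstimulated (Prdx6 and Txnrd1), in place of 6 and 9, and under an empirical null 1 passed in each state (Prdx6). Over all genes these nulls left 2175 and 486 calls at LPS 3 h, in place of 6718, and 1339 and 568 unstimulated, in place of 5575. Under the empirical null 66.0% of the calls at LPS 3 h and 21.7% of those unstimulated were rises, in place of 58.4% and 54.5%. For the difference, 894 and 335 genes passed these nulls and 1971 with the 2 SE added, in place of 3977. Txnrd1 and Txnip stayed called in all of them, and Srxn1 was lost under the null of 0.25 and under the empirical null (adjusted p = 0.524) but not with the SE added. Centring on the median, 0.03 in each state, raised the members called to 7 at LPS 3 h and to 4 for the difference. It left more falls (2875) than rises (2577) among all calls in unstimulated cells, in place of 2538 falls and 3037 rises. Adjustment over all genes, or over those with a mean of at least 10 or 50, changed no call of a member, and no member changed direction under any alternative run. No paired analysis was possible because the tables hold no values per library, and for the same reason no replicate could be left out.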
